A study of Homo sapiens with 12 samples.

Results

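Long noncoding RNAs are transcripts that are not translated and act as RNA. Several are known for their link to low oxygen. The 6 described here, MIR210HG, NEAT1, MALAT1, H19, PVT1 and LUCAT1, were chosen by name as such RNAs, with earlier results of these data known. All 6 were found among the 60656 genes of a count table of human melanoma cells. RNA was sequenced from A2058, A375 and SKMEL-5, which are established lines labelled as metastatic melanoma. Cells of each line were kept either at atmospheric oxygen (normoxia, the study's reference) or at 1% oxygen (hypoxia), and the labels give no other treatment or genetic change. There were 2 libraries, called biological duplicates, for each line and condition, so 12 libraries in 6 groups. The question was how the level of each RNA in low oxygen compared with that in normoxia, in each line and over the 3 lines.

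In low oxygen the hypoxia-inducible factors (HIF) are no longer degraded and bind DNA next to genes of glycolysis, blood vessel growth and pH control. CA9, a cell-surface carbonic anhydrase, is a standard marker of that response, and MIR210HG, the host gene of the microRNA miR-210, is among its best known noncoding targets. NEAT1 is the RNA backbone of nuclear bodies called paraspeckles, MALAT1 is an abundant RNA of nuclear speckles, H19 is an imprinted RNA expressed from the maternal chromosome and the host of miR-675, PVT1 lies beside the MYC oncogene, and LUCAT1 is a stress-responsive RNA known from lung cancer. NEAT1, H19, PVT1 and LUCAT1 have been reported to respond to low oxygen or to oxidative stress in other cells.

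Positions are on GRCh38, from the GENCODE 29 annotation, whose gene versions differ from those of the table for 5 of the 6 genes. MIR210HG (ENSG00000247095.3) lies at chr11:565660-568457 on the minus strand. H19 (ENSG00000130600.19) lies at chr11:1995176-2001470, also on the minus strand. NEAT1 (ENSG00000245532.9, chr11:65422774-65445540) and MALAT1 (ENSG00000251562.8, chr11:65497688-65506516) are neighbours on the plus strand. LUCAT1 (ENSG00000248323.7) covers chr5:91054834-91314547 on the minus strand, where it overlaps ADGRV1 on the other strand without sharing an exon.

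MIR210HG and H19 each carry a microRNA, and the mature sequences are shown because a microRNA acts through its seed. The seed, bases 2 to 8, is in capitals (RefSeq, GRCh38.p14).
hsa-miR-210-3p: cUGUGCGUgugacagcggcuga
hsa-miR-210-5p: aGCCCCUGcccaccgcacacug
hsa-miR-675-3p: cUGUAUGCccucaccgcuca
hsa-miR-675-5p: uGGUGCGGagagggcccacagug
The 4 seeds differ from each other. The miR-210 hairpin lies at chr11:568089-568198, within an intron of all 4 annotated MIR210HG transcripts, and the miR-675 hairpin at chr11:1996759-1996831 overlaps an exon in 4 of the 12 H19 transcripts. Mature microRNAs are not measured by this kind of library.

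Promoter windows, from 250 bases before to 50 after a gene's start, were found for 4 of the 6 genes in the RefSeq set, MIR210HG, MALAT1, H19 and LUCAT1. The windows of MIR210HG and LUCAT1 are shown because these RNAs had the highest correlation of any pair among the 6 over all 12 libraries (r = 0.954), though not without the normoxia 2 libraries (0.648, against 0.917 for MALAT1 and PVT1). The MIR210HG window (chr11:568408-568707, minus strand, GRCh38.p14) has the core of the HIF motif, ACGTG or GCGTG on either strand, in capitals. The LUCAT1 window (chr5:91314353-91314652, minus strand) has in capitals an antioxidant response motif, TGACNNNGC read on the other strand, which overlaps the AP-1 motif TGAGTCA.
MIR210HG: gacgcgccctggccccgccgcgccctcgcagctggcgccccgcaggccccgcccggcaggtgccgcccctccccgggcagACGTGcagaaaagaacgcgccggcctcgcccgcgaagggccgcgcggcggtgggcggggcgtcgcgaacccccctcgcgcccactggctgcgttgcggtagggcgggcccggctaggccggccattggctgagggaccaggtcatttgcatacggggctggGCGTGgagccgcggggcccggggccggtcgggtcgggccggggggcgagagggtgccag
LUCAT1: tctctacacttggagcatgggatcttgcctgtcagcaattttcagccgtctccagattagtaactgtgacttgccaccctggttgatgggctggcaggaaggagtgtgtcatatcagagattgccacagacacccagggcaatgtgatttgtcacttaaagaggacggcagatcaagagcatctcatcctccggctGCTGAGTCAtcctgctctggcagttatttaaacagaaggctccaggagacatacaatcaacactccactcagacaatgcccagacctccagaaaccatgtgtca
MIR210HG held 2 core matches, at -170 and -9 from the start site, in a window of 80.0% G and C. The LUCAT1 window held no ACGTG or GCGTG. The first MALAT1 window held 2 core matches and 2 matches to TGACNNNGC, and the H19 window held no match to any of the 3 motifs. Of 35116 such windows, 48.4% held ACGTG or GCGTG, 13.3% held TGACNNNGC and 4.95% held TGAGTCA. A match describes letters only, and whether any of these sites is bound was not tested.

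Some facts on the libraries bear on everything that follows. Library totals ran from 33831569 to 54202819 counts. A count of 0 allows for up to 3 counts, or 0.0553 to 0.0887 counts per 1000000 (CPM), by counting error only. SOX10, which marks cells of the melanocyte and neural crest lineage, had 652 to 1469 CPM, whereas TYR and MLANA, a pigment enzyme and a melanosome antigen, had no count in any A375 or SKMEL-5 library. Libraries of A375 and SKMEL-5 correlated with each other at r = 0.912 to 0.990 over 19636 genes, the 4 A375 libraries among themselves at 0.917 to 0.982, and A2058 with the other lines at 0.810 to 0.880. By this measure A375 and SKMEL-5 libraries were about as alike as libraries of 1 line. Whether the 2 labels hold separate lines was not tested, and every 3-line value here counts them as 2. Only 2 genes differed in level between A375 and SKMEL-5, against 5418 between A2058 and A375, and means that leave out 1 of these lines are given in the closing section and beside MALAT1. Replicates of a group were far apart. On the first principal component within lines, 1 hypoxic library per line was set apart from the rest: hypoxia 2 of A2058 (a score of 72.7) and hypoxia 1 of A375 (132) and of SKMEL-5 (108), where every other library scored below 0. In all 3 lines at once, 3.71% of genes were at least 2-fold higher in that library than in the other hypoxic one. The hypoxia marker CA9 had 0.0826 to 19 CPM in normoxia and 352 to 725 CPM in hypoxia. Its change over the 3 lines was 6.77 ± 1.18 on the log2 scale (SE), with an edgeR adjusted p of 0.0257. That call was lost in some of the fits that left out 1 library, as given below for the hypoxia response genes.

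Over the 3 lines, 0 of the 6 RNAs passed the threshold, an edgeR quasi-likelihood p adjusted over all 19636 tested genes of under 0.05. In the same comparison 1.12% of tested genes passed, 0.978% higher and 0.143% lower. These are also the shares to set beside the listed genes below. At an unadjusted p under 0.05, 1 of the 6 passed, MIR210HG, against 19% of all tested genes, and DESeq2 and limma-voom called none of the 6. The fitted mean change was above 0 for 5 of the 6, against 10019 of 19636 tested genes and 1510 of 3428 long noncoding genes. Its median over the 6 was 0.65 (log2) against 0.02 over all tested genes. Within lines 0 of 6 passed as well, against 0.0102% of tested genes in A2058 and 0% in A375 and SKMEL-5. CA9 did not pass within a line either (edgeR adjusted p = 0.377, 0.840 and 0.731 in A2058, A375 and SKMEL-5). Its changes there were 5.83 ± 1.95, 7.80 ± 2.13 and 6.67 ± 2.03 (SE), so the within-line tests can miss a large change. All 6 passed the filter on low counts. The p-values measure the spread between these libraries. In bulk RNA, fewer cells that make an RNA and less of it per cell cannot be told apart.

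**Figure D1:**
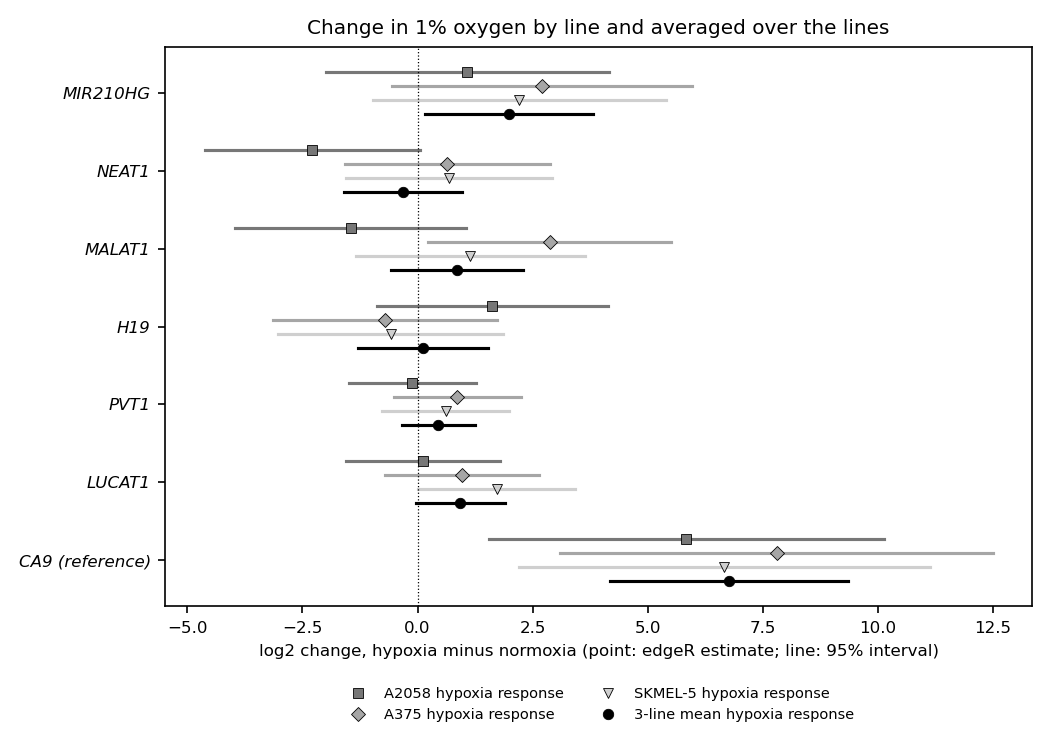
Change in hypoxia against normoxia on the log2 scale (x axis) for the 6 RNAs and CA9, as the mean of the 3 lines (black circles) and within each line (grey symbols), with 95% confidence intervals from the edgeR fit. The interval of the 3-line mean lies above 0 for MIR210HG (0.17 to 3.82) and spans 0 for the other 5 RNAs.

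MIR210HG is the precursor from which miR-210 is cut. A2058 had 21.9 and 1.87 CPM in normoxia (replicates 1 and 2, here and below) and 18.4 and 32.0 CPM in hypoxia. A375 had 4.02 and 0.568 CPM in normoxia and 18.1 and 11.9 CPM in hypoxia. SKMEL-5 had 11.8 and 0.162 CPM in normoxia and 32.0 and 22.9 CPM in hypoxia. The groups did not overlap in A375 and SKMEL-5, and in A2058 normoxia 1 was above hypoxia 1. For comparison, both hypoxic libraries stood above both normoxic ones in 20.5%, 18.1% and 18.5% of tested genes in A2058, A375 and SKMEL-5. They did so in all 3 lines for 4.86% of genes and stood below in all 3 for 2.79%, and for 0 of the 6 RNAs in either direction. The mean change over the lines was 2.0 ± 0.83 on the log2 scale (SE), which is 3.99-fold, with a 95% interval of 0.17 to 3.82 and an edgeR adjusted p of 0.230. The 3 line values, in the same order, were 1.08 ± 1.40, 2.70 ± 1.48 and 2.2 ± 1.45, with edgeR adjusted p-values of 0.876, 0.843 and 0.739. Leaving out 1 library moved them to between 0.21 and 3.73 in A2058, 1.89 and 4.70 in A375 and 1.23 and 7.43 in SKMEL-5, with the low end without normoxia 2 and the high end without normoxia 1 of that line.

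MIR210HG differed more between its normoxic replicates than between its hypoxic ones in every line. In normoxia replicate 1 was 11.4-fold above replicate 2 in A2058, 6.62-fold in A375 and 56.9-fold in SKMEL-5. Replicate 1 was at least 2-fold above replicate 2 in all 3 lines in 2.09% of tested genes, and in 3 of the 6 RNAs, MIR210HG, NEAT1 and LUCAT1. The lowest value, 0.162 CPM, rested on 8 counts and the highest, 32.0 CPM in SKMEL-5, on 1342. The 3-line mean was 3.11 by limma-voom. With the 3 normoxic replicate 1 libraries left out, it was 5.29 and the edgeR adjusted p was 0.0418. With the 3 normoxic replicate 2 libraries left out it was 1.11 (edgeR adjusted p = 0.482), and without the 3 hypoxic libraries set apart it was 1.62 (edgeR adjusted p = 0.664).

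The hairpin of miR-210 has a row of its own in the table, with few reads. A2058 had 19 and 0 counts in normoxia and 13 and 38 in hypoxia. A375 had 7 and 1 counts against 43 and 12, and SKMEL-5 had 7 and 0 against 81 and 40. The hairpin was thus low in every normoxic replicate 2 library, where MIR210HG was also low, and the ranks of the hypoxic and normoxic libraries overlapped in A2058 only. Its mean change was 2.95 ± 0.92 (edgeR adjusted p = 0.138). How the counting divided reads between the hairpin and its host gene is not known.

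Among genes reported as targets of miR-210, 24 were tested and 1 passed, upward, with a median change of 0.00. It was BNIP3, a mitophagy receptor that is also on the list of hypoxia response genes, at 38.8 to 289 CPM in normoxia and 428 to 1574 CPM in hypoxia (2.87 ± 0.54, edgeR adjusted p = 0.0329), and it did not pass without the 3 hypoxic libraries set apart or in 7 of the 12 fits that left out 1 library. ISCU, an iron-sulfur cluster scaffold and a classical target, was at -0.48 ± 0.18 and did not pass (edgeR adjusted p = 0.196). EFNA3, an ephrin ligand, was at 2.49 ± 0.68 (edgeR adjusted p = 0.103). Of other microRNA host genes 19 were tested and 0 passed, with a median of -0.02. An unadjusted p under 0.05 was seen in 3, against 19% of all tested genes. The smallest p was that of MIR22HG, the host of miR-22, at 7.63 to 18.3 CPM in normoxia and 0.747 to 6.36 CPM in hypoxia (-1.56 ± 0.48, edgeR adjusted p = 0.135). Of 6 tested neighbours of MIR210HG 0 passed. RASSF7, a Ras-association domain gene, had a mean change of 0.95 ± 0.25 (edgeR adjusted p = 0.0922), and PHRF1, a ubiquitin ligase gene, one of -0.32 ± 0.24 (edgeR adjusted p = 0.471).

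LUCAT1 is a stress-linked RNA, and its promoter window above holds the antioxidant motif. Its A2058 values were 14.5 and 6.33 CPM in normoxia and 9.91 and 12.6 CPM in hypoxia. Its A375 values were 12.7 and 3.65 CPM in normoxia and 19.7 and 12.2 CPM in hypoxia. Its SKMEL-5 values were 11.2 and 2.13 CPM in normoxia and 19.3 and 24.6 CPM in hypoxia. The groups did not overlap in SKMEL-5, overlapped narrowly in A375, and in A2058 both hypoxic values lay between the normoxic ones. Over the 3 lines the mean change was 0.93 ± 0.44 (1.91-fold, 95% interval -0.04 to 1.90, edgeR adjusted p = 0.281). The changes within lines were 0.12 ± 0.76, 0.96 ± 0.76 and 1.72 ± 0.78 in A2058, A375 and SKMEL-5, and none passed (edgeR adjusted p = 0.997, 0.863 and 0.731).

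As with MIR210HG, the normoxic replicate 1 libraries held more LUCAT1 than replicate 2, by 2.27-fold in A2058, 3.45-fold in A375 and 5.19-fold in SKMEL-5. The mean change was 2.11 without the normoxic replicate 1 libraries (edgeR adjusted p = 0.179) and 0.31 without the replicate 2 libraries (edgeR adjusted p = 0.773). Of 6 tested neighbours of LUCAT1 0 passed. ARRDC3, an arrestin-domain gene beside it, had 13.7 to 46.1 CPM in normoxia and 62.4 to 197 CPM in hypoxia. Both hypoxic libraries stood above both normoxic ones in all 3 lines, as for 4.86% of tested genes. The mean change of ARRDC3 was 1.66 ± 0.37 and did not pass (edgeR adjusted p = 0.0583). Among targets of NRF2, the transcription factor of the antioxidant response, 12 were tested and 1 passed, with a median of -0.29. It was ME1, the cytosolic malic enzyme, at 34.3 to 57.4 CPM in normoxia and 89.5 to 322 CPM in hypoxia (1.66 ± 0.24, edgeR adjusted p = 0.0115), which did not pass without the 3 hypoxic libraries set apart or in 4 of the 12 fits that left out 1 library. NQO1, a quinone reductase, was at -0.66 ± 0.36 (edgeR adjusted p = 0.341) and HMOX1, heme oxygenase, at -0.55 ± 0.36 (edgeR adjusted p = 0.417).

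**Figure D2:**
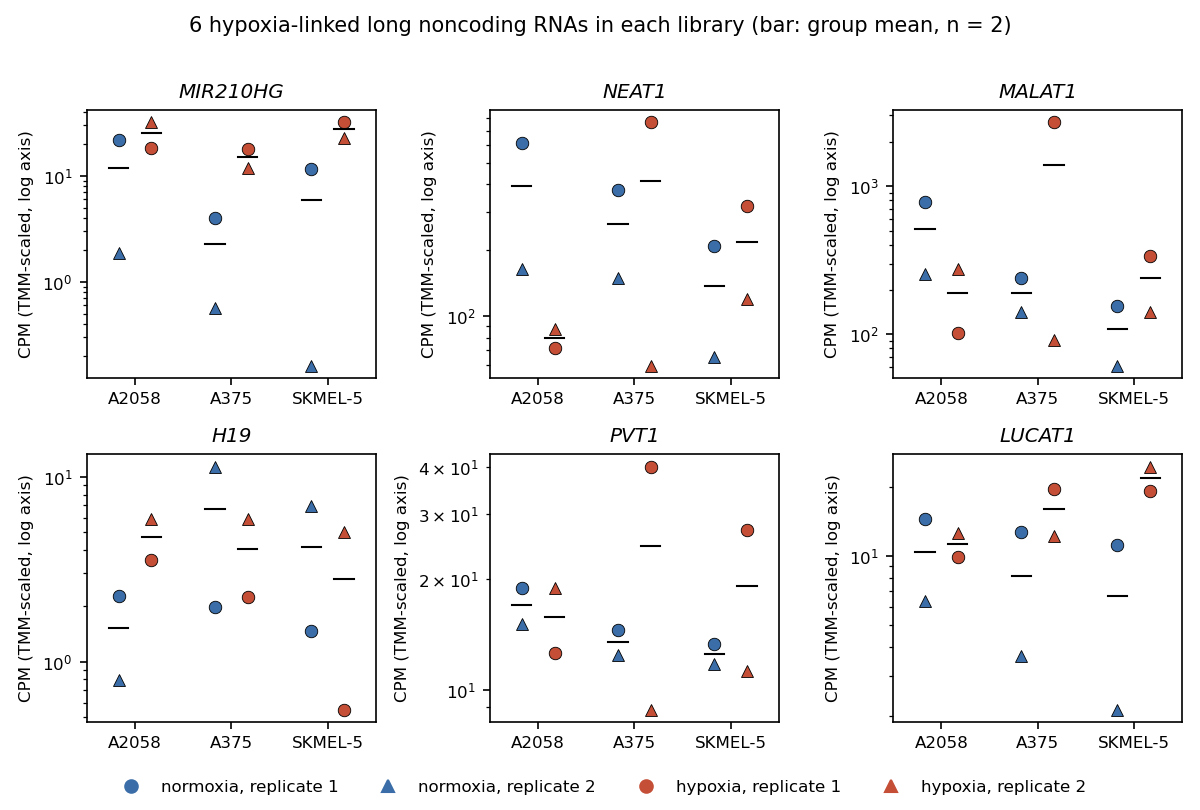
TMM-scaled CPM on a log axis (y axis) of the 6 RNAs in each of the 12 libraries, by line and condition, with circles for replicate 1, triangles for replicate 2 and a bar at the group mean (n = 2). MIR210HG in SKMEL-5 normoxia spans 0.162 to 11.8 CPM, and MALAT1 in A375 hypoxia spans 91.6 to 2690 CPM.

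NEAT1 holds paraspeckles together. A2058 had 617 and 164 CPM in normoxia and 72.1 and 87.5 CPM in hypoxia. A375 had 376 and 149 CPM in normoxia and 763 and 59.7 CPM in hypoxia. SKMEL-5 had 209 and 65.2 CPM in normoxia and 318 and 120 CPM in hypoxia. Both hypoxic libraries were below both normoxic ones in A2058, as for 18.6% of tested genes there, and the groups overlapped in A375 and SKMEL-5. The mean change was -0.32 ± 0.58 (95% interval -1.61 to 0.96, edgeR adjusted p = 0.804). It was -2.29 ± 1.06 in A2058, and the values of A375 and SKMEL-5 were 0.65 ± 1.02 and 0.68 ± 1.02 (edgeR adjusted p = 0.556, 0.904 and 0.868). The 2 directions were not shown to differ, since the test for equal changes in the 3 lines gave an edgeR adjusted p of 1, as it did for each of the 6 RNAs, and it called 0% of all tested genes.

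The hypoxic values of NEAT1 in A375 were 12.8-fold apart. Without the 3 hypoxic libraries set apart the mean change was -1.61 (edgeR adjusted p = 0.403) and that in A375 was -2.18. Without the normoxic replicate 1 libraries the mean turned to 0.74 (edgeR adjusted p = 0.675). Of 28 genes for paraspeckle proteins 0 passed and 6 had an unadjusted p under 0.05, against 19% of all tested genes. Their median was -0.30, and 7 of the 28 were above 0, against 10019 of all 19636 tested genes. RBM14, which paraspeckle assembly needs, had the smallest p (-0.72 ± 0.27, edgeR adjusted p = 0.192). Of the core binding proteins SFPQ was at -0.97 ± 0.43 (edgeR adjusted p = 0.258), and NONO at 0.16 ± 0.23 and PSPC1 at -0.03 ± 0.20 were near 0.

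MALAT1 ends in an unusual way: its tail is not added but encoded, and RNase P cuts behind it to release a small tRNA-like RNA, mascRNA. The end is shown because libraries that capture RNA by its tail depend on such A-rich stretches. The run of 13 A is in capitals, at the end of chr11:65506040-65506116, and mascRNA follows at chr11:65506117-65506173 (both plus strand, GRCh38, GENCODE 29).
MALAT1 3′ end: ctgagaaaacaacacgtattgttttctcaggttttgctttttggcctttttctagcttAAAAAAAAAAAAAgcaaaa
mascRNA: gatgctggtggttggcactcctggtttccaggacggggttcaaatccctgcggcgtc
In A2058 MALAT1 had 778 and 254 CPM in normoxia and 102 and 276 CPM in hypoxia. Its A375 values were 240 and 140 CPM in normoxia and 2690 and 91.6 CPM in hypoxia. Its SKMEL-5 values were 154 and 61.3 CPM in normoxia and 336 and 140 CPM in hypoxia. The groups overlapped in all 3 lines, and A375 hypoxia 1, with 89513 counts, was the highest library by far and A375 hypoxia 2 the lowest of its line.

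The mean change of MALAT1 was 0.85 ± 0.65 (95% interval -0.57 to 2.28, edgeR adjusted p = 0.487). The line values, in the order A2058, A375 and SKMEL-5, were -1.45 ± 1.14, 2.87 ± 1.20 and 1.14 ± 1.13 (edgeR adjusted p = 0.760, 0.840 and 0.798). Its direction rested on A375 hypoxia 1, without which the mean was -0.45 and the A375 value -1.09. Without all 3 hypoxic libraries set apart the mean was -1.03, and over A2058 and SKMEL-5 alone it was -0.15. Genes of the machinery that cuts, stabilises or uses MALAT1 had 16 tested members, of which 0 passed. Of the 16, 7 had an unadjusted p under 0.05, against 19% of all tested genes. Above 0 was 1 of the 16, against 10019 of all 19636 tested genes, and the median was -0.69. SRSF2, a splicing factor that MALAT1 binds in speckles, was at -0.79 ± 0.28 (edgeR adjusted p = 0.177). ELAC2, the nuclease that trims the 3′ end of mascRNA, was at -0.66 ± 0.28 (edgeR adjusted p = 0.233). METTL16, which binds the MALAT1 triple helix, was at 0.00 ± 0.22.

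Among the 9 tested neighbours of NEAT1 and MALAT1 0 passed, with a median of -0.36. LTBP3, which binds latent TGF-beta, was at 0.98 ± 0.22 (117 to 623 CPM in normoxia, 279 to 851 CPM in hypoxia, edgeR adjusted p = 0.0581). FRMD8, a partner of the inactive rhomboid proteases, was at -0.65 ± 0.42 (edgeR adjusted p = 0.412).

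PVT1 (ENSG00000249859.12) covers chr8:127794533-128101253 on the plus strand, downstream of MYC, and differed least between normoxic replicates among the 6 RNAs. A2058 had 18.9 and 15.1 CPM in normoxia and 12.6 and 18.9 CPM in hypoxia. A375 had 14.6 and 12.5 CPM in normoxia and 40.2 and 8.84 CPM in hypoxia. SKMEL-5 had 13.3 and 11.8 CPM in normoxia and 27 and 11.2 CPM in hypoxia. The groups overlapped in all 3 lines, and in each the hypoxic library set apart held the higher hypoxic value. The mean change was 0.45 ± 0.36 (95% interval -0.34 to 1.25, edgeR adjusted p = 0.508), and the line values were -0.11 ± 0.62, 0.86 ± 0.63 and 0.61 ± 0.63. Without A375 hypoxia 1 the mean was -0.03, and without the 3 libraries set apart it was -0.42.

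Of 3 tested neighbours of PVT1 0 passed. MYC, the growth-promoting transcription factor, had 20.2 to 58.4 CPM in normoxia and 29.3 to 280 CPM in hypoxia, with the highest value in A375 hypoxia 1. Its mean change was 0.91 ± 0.42 (edgeR adjusted p = 0.268). It was 0.16 without that library, and 1.19 without A375 hypoxia 2, where it passed (edgeR adjusted p = 0.0256). Of 14 p53 targets, which are listed because PVT1 and p53 have been tied to each other, 0 passed. An unadjusted p under 0.05 was seen in 5, against 19% of all tested genes. GDF15, a stress cytokine, had the smallest p (1.76 ± 0.42, edgeR adjusted p = 0.0740).

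H19, normally silent in most adult cells, had 23 to 479 counts in a library. In A2058 it had 2.26 and 0.798 CPM in normoxia and 3.54 and 5.92 CPM in hypoxia. In A375 it had 1.98 and 11.3 CPM in normoxia and 2.22 and 5.91 CPM in hypoxia. In SKMEL-5 it had 1.46 and 6.92 CPM in normoxia and 0.548 and 5.05 CPM in hypoxia. The groups did not overlap in A2058, with hypoxia above, and overlapped in A375 and SKMEL-5, where replicate 2 exceeded replicate 1 in both conditions. The mean change was 0.11 ± 0.64 (95% interval -1.29 to 1.52, edgeR adjusted p = 0.962). It was 1.63 ± 1.14 in A2058, against -0.71 ± 1.11 for A375 and -0.58 ± 1.11 for SKMEL-5 (edgeR adjusted p = 0.730, 0.904 and 0.904). Leaving out single libraries moved the mean between -0.67 (without SKMEL-5 hypoxia 2) and 0.70 (without A375 normoxia 2).

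Of 8 matched neighbours of H19, 2 had enough counts to be tested. IGF2, the growth factor gene whose enhancers H19 shares, had 0 to 4 counts in a library and was not tested. Neither tested neighbour passed. MRPL23, a mitochondrial ribosome gene, was at -0.032 ± 0.21 (edgeR adjusted p = 0.972), and the leukocyte gene LSP1 had a mean change of 2.54 ± 0.73 (edgeR adjusted p = 0.116) from at most 0.202 CPM in normoxia and 1.81 CPM in hypoxia. Of 15 tested imprinted genes 0 passed and the median was 0.33. An unadjusted p under 0.05 was seen in 4, against 19% of all tested genes. PLAGL1, a zinc finger factor of the imprinted network, had the smallest p (1.18 ± 0.32, edgeR adjusted p = 0.102). Of 12 genes that regulate imprinting or bind H19 0 passed, and DNMT3B, a DNA methyltransferase, was at -0.75 ± 0.32 (edgeR adjusted p = 0.244).

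Levels of different RNAs are compared only after division of CPM by the annotated exon length in kilobases (RPKM). On that scale MALAT1 was first in all 6 groups, from 12.2 ± 7.46 in SKMEL-5 normoxia to 158 ± 208 in A375 hypoxia (mean ± SD, n = 2). NEAT1 was second in normoxia in each line, at 17.1 ± 14.1, 11.5 ± 7.03 and 6.02 ± 4.47 RPKM in A2058, A375 and SKMEL-5. In hypoxia MIR210HG was second in A2058 (10.8 ± 4.15) and SKMEL-5 (11.8 ± 2.76), and NEAT1 in A375 (18.1 ± 21.8). LUCAT1 or H19 was last in each group, at 0.404 to 0.966 RPKM. Neighbours in this order often lay within their spread: in SKMEL-5 hypoxia MIR210HG and NEAT1 (9.62 ± 6.12) did. The annotated exons of LUCAT1 span 16538 bases over 55 transcripts, and those of NEAT1 span 22767 bases over 8. Which transcripts the reads came from is not known. The values of both RNAs per length, and so their places in the order, depend on these lengths. No RNA differed in level between lines beyond the spread: 0 of 6 passed for A2058 against A375 or SKMEL-5 (edgeR adjusted p = 0.283 to 0.986), where 27.6% and 26.8% of tested genes passed, and 0 of 6 for A375 against SKMEL-5 (0.0102% of genes).

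Measured by the biological coefficient of variation, the edgeR estimate of the spread between replicates, MIR210HG stood at 0.895, above 98.1% of tested genes. H19 was at 0.743, MALAT1 at 0.728 and NEAT1 at 0.670, each above at least 89.0% of genes. LUCAT1 was at 0.534, above 73.4% of genes, and PVT1 at 0.452 was near the median gene at 0.425. In normoxia MIR210HG, LUCAT1 and NEAT1 were at least 2-fold higher in replicate 1 than in replicate 2 in every line, whereas PVT1 differed by 1.13-fold to 1.25-fold. In hypoxia 1 of the 6, MALAT1, was at least 2-fold higher in the library set apart in every line (2.71-fold in A2058, 29.4-fold in A375 and 2.40-fold in SKMEL-5). PVT1 (1.5-fold, 4.53-fold and 2.40-fold) and NEAT1 (1.21-fold, 12.8-fold and 2.64-fold) were higher there too, and MIR210HG differed by 1.39-fold to 1.74-fold.

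**Figure D3:**
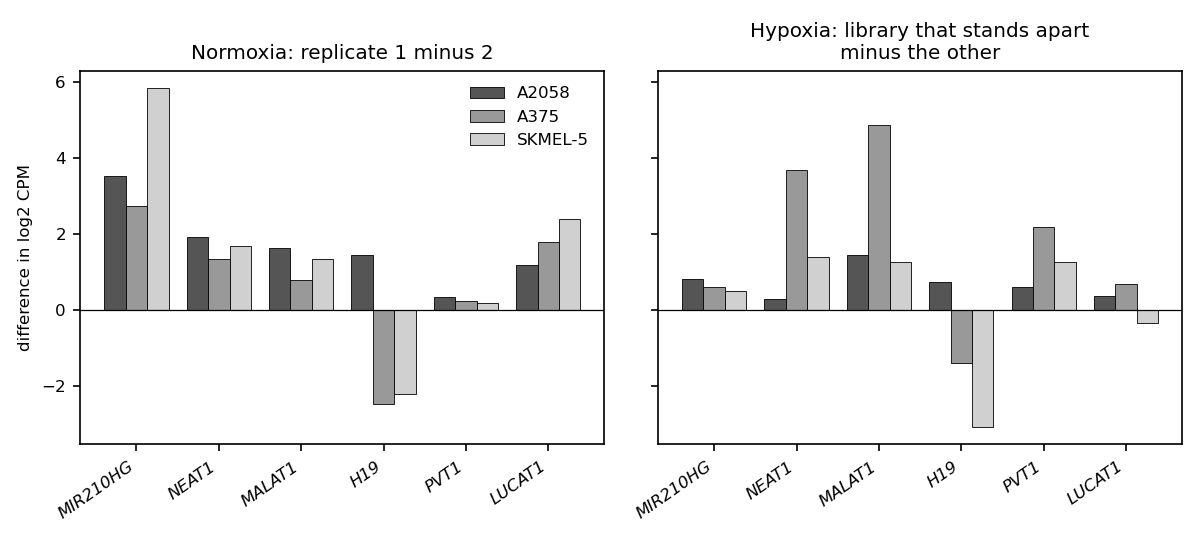
Difference between the 2 replicates of a group on the log2 scale for each RNA (bars, 1 for each line), in normoxia (replicate 1 minus 2) and in hypoxia (the library set apart minus the other). MIR210HG reaches 5.83 in SKMEL-5 normoxia and MALAT1 4.88 in A375 hypoxia.

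The hypoxia response itself differed between the normoxic replicates. Of 29 listed hypoxia response genes, a list made with these data known, 22 passed and all 22 were higher in hypoxia (6 without the 3 hypoxic libraries set apart). Leaving out 1 library gave 1 to 25, with 1 left, P4HA2, without A375 normoxia 1, A375 normoxia 2 or SKMEL-5 normoxia 2. Among the 22 were P4HA2 and P4HA1, collagen prolyl hydroxylases (2.32 ± 0.25 and 2.67 ± 0.37, edgeR adjusted p = 0.00460 and 0.0110). NDRG1, a stress response gene, was another (4.13 ± 0.56, edgeR adjusted p = 0.0110). Of the 12 fits without 1 library, P4HA1 did not pass in 3 and NDRG1 in 4. The mean log2 CPM of the list was 6.27 and 5.09 in A2058 normoxia 1 and 2, 5.30 and 5.16 in A375 and 5.93 and 5.10 in SKMEL-5, against 7.37 to 8.85 in hypoxic libraries. Replicate 1 was thus the higher normoxic library in each line, by this list, by CA9 and by MIR210HG. Whether the oxygen of these cultures differed was not tested.

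Across the 12 libraries, with each line's mean subtracted, MIR210HG followed the list mean at r = 0.803 and LUCAT1 at 0.689, while CA9, itself a member of the list, did so at 0.964. The values of PVT1 (0.351), MALAT1 (0.295), H19 (0.089) and NEAT1 (-0.053) were lower. These correlations describe 12 libraries that share their lines and conditions. MIR210HG and LUCAT1 followed each other at r = 0.954, or 0.648 over the 9 libraries left without normoxia 2. NEAT1 and MALAT1 did so at 0.884 and MALAT1 and PVT1 at 0.916, or 0.915 and 0.786 over the 11 libraries without A375 hypoxia 1. H19 ran against NEAT1 (r = -0.655). PVT1 and MYC were at 0.736, and at 0.052 without A375 hypoxia 1.

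**Figure D4:**
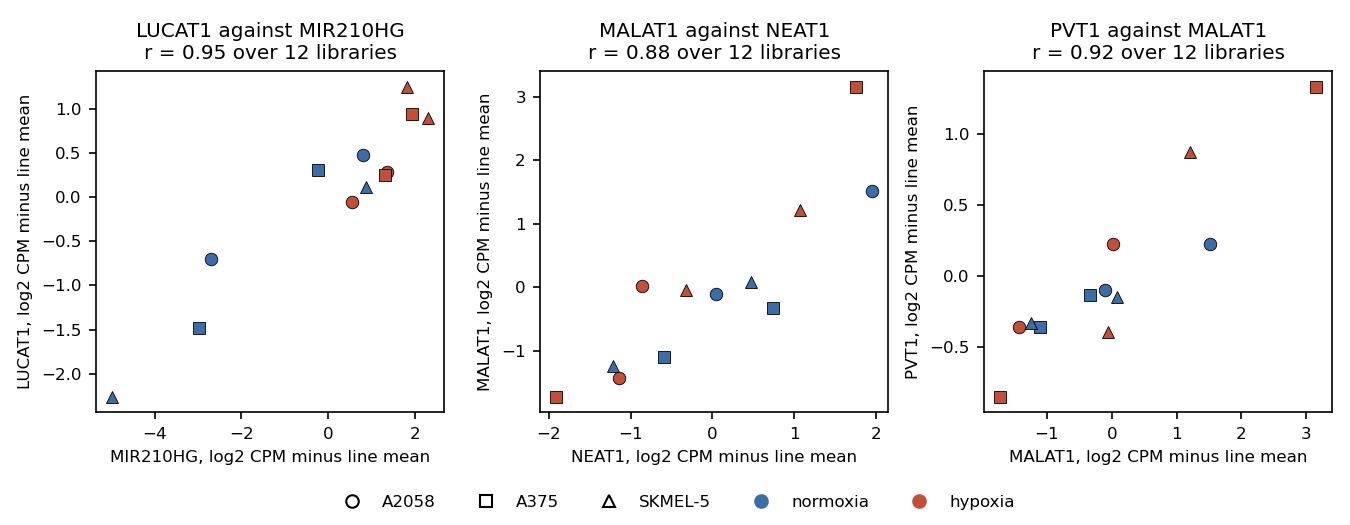
Log2 CPM with the line mean subtracted, for 12 libraries coloured by condition and shaped by line, in 3 pairs of RNAs. MIR210HG and LUCAT1 lie along a line (r = 0.954), and NEAT1 and MALAT1 (r = 0.884) and MALAT1 and PVT1 (r = 0.916) spread most in A375 hypoxia.

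Among 9515 protein-coding genes of at least 10 CPM, those most like each RNA over the 12 libraries were the following, by r after subtraction of the line mean. For MIR210HG they were EPOR, the erythropoietin receptor (0.947), SPAG4, a nuclear envelope gene (0.945), and EFNA3 (0.935). LUCAT1 was most like THBS3, a thrombospondin (0.922), DNHD1 (0.912) and POLI, a DNA polymerase (0.907). For NEAT1 they were HOXB5, a homeobox gene (0.971), ATG16L2 (0.959) and ARRDC1 (0.952). MALAT1 was most like CSNK1E, a casein kinase (0.953), ZFP36, an RNA decay factor (0.945), and TRIP10 (0.941). PVT1 was most like RUFY3 (0.986), TRIM52 (0.981) and FAM98C (0.979). For H19 they were CALR, the chaperone calreticulin (0.938), KIF15, a mitotic kinesin (0.935), and SAV1, a Hippo pathway scaffold (0.924). None of the 18 passed in the 3-line mean; the nearest was SPAG4, at 2.65 on the log2 scale (edgeR adjusted p = 0.0513).

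Other long noncoding RNAs linked to hypoxia were compared from a list of 26 tested genes. One passed, UCA1, an RNA known from bladder cancer. In A2058 it had 0 and 0.0275 CPM in normoxia and 0.968 and 0.402 CPM in hypoxia. In A375 it had 1.92 and 0.379 CPM in normoxia and 3.55 and 23.3 CPM in hypoxia, and in SKMEL-5 0.650 and 0.425 CPM against 3.08 and 19.2 CPM. The hypoxic libraries were above the normoxic ones in every line, with a mean change of 4.44 ± 0.78 (edgeR adjusted p = 0.0267), and the call was lost in 7 of the 12 fits that left out 1 library. Of the 26, 9 had an unadjusted p under 0.05, against 19% of all tested genes. Above 0 were 18 of the 26, against 10019 of all 19636 tested genes, and the median was 0.32. VLDLR-AS1 (1.65 ± 0.45) and GAS5 (1.57 ± 0.48) did not pass (edgeR adjusted p = 0.105 and 0.135), and TUG1 was at 0.02 ± 0.17. These 3 were named after their values were seen. GAS5 had 1629 CPM in A375 hypoxia 1 and 1039 CPM in SKMEL-5 hypoxia 1, both libraries set apart. Hypoxia 2 of these lines had 204 and 336 CPM, against 138 to 216 and 169 to 336 CPM in normoxia. In A2058 GAS5 had 173 and 344 CPM in hypoxia, against 162 and 115 CPM in normoxia. Of 8 tested long noncoding RNAs known from melanoma 0 passed, with a median of 0.01 and the smallest p for CASC15 (1.21 ± 0.42, edgeR adjusted p = 0.172). Over all 3428 tested long noncoding genes 16 passed upward and 3 downward, with a median of -0.10.

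Of the tested markers of 4 cell types 0 passed, and 5 had an unadjusted p under 0.05, against 19% of all tested genes. Of these 5, 4 were fibroblast markers, a list with a median change of 0.87 (log2), and 1 was a keratinocyte marker. Tested were 10 markers of melanocytes and neural crest, 7 of fibroblasts, 4 of keratinocytes and 3 of blood. Summed over their lists, fibroblast markers came to 11.1 to 29.4 CPM in normoxia and 11.7 to 90.6 in hypoxia, keratinocyte markers to 165 to 494 and 102 to 717 CPM, and blood markers to 0.739 to 11.3 and 1.01 to 15.8 CPM. Melanocyte and neural crest markers came to 1468 to 3342 CPM and 849 to 7143 CPM. Most of the keratinocyte sum was KRT18 (37.0 to 536 CPM), KRT10 (42.8 to 110 CPM) and KRT8 (12.9 to 96.4 CPM). KRT14 had 0.151 to 19.4 CPM, KRT5 at most 0.157 CPM and KRT1 at most 0.0251 CPM. The part of all these markers in the results was not tested.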

How the data were processed

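The authors deposited raw read counts per gene for 12 libraries of total RNA made with a NuGen Universal Plus mRNA kit, per the labels' protocols. STAR 2.5.0a, Trim Galore 0.6.1 and bcl2fastq 2.20 are named in the submitters' processing notes, with the build GRCh38. How reads were counted, on which strand and with which annotation is not given in the sources used here. Reads of overlapping or antisense genes could therefore have gone to either gene. Symbols were matched for 60401 of 60656 gene IDs and positions for 58394.

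The analysis used edgeR 4.0.16 (R 4.3.3): filterByExpr over 6 groups (count of at least 10, total of at least 15; 19636 genes left), TMM scaling, and a quasi-likelihood fit of 1 mean per group over all 12 libraries, with 6 residual and 5.02 prior degrees of freedom. Contrasts were hypoxia minus normoxia per line, their mean, an F test of equal changes, and levels between lines. Adjustment was by Benjamini-Hochberg across every tested gene. The SE is the absolute log2 change over the square root of F. CPM are TMM-scaled, except those of cell type markers, which use library totals. Log2 CPM used a prior count of 2. RPKM used GENCODE 29 exon lengths. The fit was tested on simulated counts. Intervals and the 3-count limit cover counting or replicate error only.

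The members and all lists were chosen with earlier results of these data known. Of 302 list entries 292 matched. Genes were named by rule: the 6 members, the 3 most alike protein-coding genes of each, up to 3 called genes per direction of each list or the smallest p, fixed neighbours (1 is not reported here) and CA9; the others (NONO, SFPQ, PSPC1, ELAC2, METTL16, ISCU, NQO1, HMOX1 and those said to be) were named after their values were seen. Alternatives were other scalings and filters, DESeq2 1.42.0, limma-voom (limma 3.58.1), a replicate block, each library left out, and, chosen after seeing the data, sets of 3 normoxic libraries left out and a crossed block.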

Additional observations from a re-analysis of the deposited data

How the results depend on the processing

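The count of the 6 RNAs called over the 3 lines was 0 in all 12 fits that left out 1 library. It was 1 without the 3 normoxic replicate 1 libraries (MIR210HG) and 2 with no low-count filter (MIR210HG, adjusted p = 1.55e-07, and MALAT1, adjusted p = 0.0269, both edgeR). With no filter the within-line counts were 1, 2 and 1 (A2058, A375, SKMEL-5), with 2 for the difference between lines, and 2, 1 and 1 for the levels of A2058 against A375, A2058 against SKMEL-5 and A375 against SKMEL-5. Against 192 genes higher and 28 lower over the 3 lines, there were 109 higher with library totals, 1365 and 490 with no filter, 1110 and 433 by DESeq2, 27 and 3 without the 3 hypoxic libraries set apart, 6 and 1 without normoxia 1, 1 and 2 without normoxia 2, 34 and 14 over A2058 and A375, and 24 and 10 over A2058 and SKMEL-5; leaving out 1 library gave 9 (without A375 normoxia 2) to 823 (without A375 hypoxia 2) higher and 4 (without A375 normoxia 1) to 297 lower. The labels do not say that replicate numbers pair libraries, and deviations of same-numbered libraries correlated at -0.304 for A2058, 0.234 for A375 and 0.255 for SKMEL-5. A replicate block gave 78 higher and 13 lower, and 477 and 132 with the A2058 numbers crossed, with 0 of the 6 called in both; NEAT1 in A375 was -0.15 and the mean of MIR210HG 3.02 and 3.0 under the blocks. Scaling to library totals moved the median of all genes from 0.02 to -0.14 and that of the 6 RNAs from 0.65 to 0.42. MIR210HG kept its sign in every fit, and so did the 3-line mean of LUCAT1. Signs turned without the 3 hypoxic libraries set apart for the means of MALAT1 (-1.03) and PVT1 (-0.42), LUCAT1 in A2058 (-0.083), NEAT1 (-2.18), MALAT1 (-1.10) and PVT1 (-0.65) in A375, and NEAT1 (-0.20), H19 (0.27) and PVT1 (-0.16) in SKMEL-5. Without normoxia 1 they turned for the means of NEAT1 (0.74) and H19 (-0.085) and PVT1 in A2058 (0.042), and without normoxia 2 for LUCAT1 in A2058 (-0.35) and H19 in A375 (1.04) and SKMEL-5 (0.95). NEAT1 in A375 was -0.13 by limma-voom, and the mean of MALAT1 was -0.15 over A2058 and SKMEL-5. Over A2058 and A375 means were 1.89 for MIR210HG, -0.82 for NEAT1, 0.71 for MALAT1, 0.46 for H19, 0.37 for PVT1 and 0.54 for LUCAT1. Over A2058 and SKMEL-5 they were 1.64, -0.81, -0.15, 0.52, 0.25 and 0.92 in the same order. Over the fits without 1 library the means ran from -1.24 to 0.12 for NEAT1, -0.45 to 1.22 for MALAT1, -0.67 to 0.70 for H19 and -0.031 to 0.69 for PVT1. Within lines they ran from -0.35 to 0.82 for LUCAT1 and -0.42 to 0.16 for PVT1 in A2058, from -2.18 to 1.52 for NEAT1, -1.09 to 3.81 for MALAT1, -1.59 to 1.04 for H19 and -0.65 to 1.56 for PVT1 in A375, and from -0.18 to 1.81 for NEAT1, -2.93 to 0.95 for H19 and -0.16 to 1.11 for PVT1 in SKMEL-5. With 1 library out and no turn of sign, the mean of MIR210HG ran from 1.67 to 3.74 and that of LUCAT1 from 0.68 to 1.49; LUCAT1 ran from 0.32 to 2.12 in A375 and 0.97 to 3.40 in SKMEL-5, NEAT1 from -2.94 to -1.05, MALAT1 from -2.33 to -0.45 and H19 from 1.07 to 2.54 in A2058, and MALAT1 from 0.38 to 2.02 in SKMEL-5. Without A375 hypoxia 2, RASSF7, LTBP3, ARRDC3, GDF15, MIR22HG and MYC passed. The cause was not tested for any of these. With 2 libraries a group and replicates this far apart, the intervals leave room for changes of several fold in the RNAs that did not pass.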

Other observations

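Besides UCA1, 18 long noncoding genes passed the threshold over the 3 lines, and those described here were picked after their values were seen. UPK1A-AS1 had 0.0826 to 1.62 CPM in normoxia and 2.59 to 22.8 CPM in hypoxia, a change of 4.51 ± 0.89 (edgeR adjusted p = 0.0410). DDIT4-AS1, antisense to the stress gene DDIT4, had 0.878 to 2.77 CPM and 3.81 to 7.33 CPM (1.74 ± 0.32, edgeR adjusted p = 0.0315). In both, every hypoxic library was above every normoxic one. As both were picked from genes that passed, this separation adds no support, and its share over all genes is not given here. Whether these calls hold with libraries left out is not given either. LINC01587 (3.6 ± 0.46, edgeR adjusted p = 0.00882) had at most 0.0675 CPM in normoxia and 0.150 to 2.21 CPM in hypoxia. BHLHE40-AS1 was at 2.86 ± 0.58 (edgeR adjusted p = 0.0476). DDIT4 and BHLHE40 are on the list of hypoxia response genes, and without a stated strand setting reads of a gene and its antisense partner cannot be told apart.

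DANCR, a snoRNA host gene, fell (-0.87 ± 0.16, edgeR adjusted p = 0.0354), with 51.6 to 73.1 CPM in normoxia and 24.0 to 40.1 CPM in hypoxia. TMEM147-AS1 fell too (-1.14 ± 0.23, edgeR adjusted p = 0.0477), with 14.2 to 31.3 CPM in normoxia and 5.03 to 13.1 CPM in hypoxia. No hypoxic library of either overlapped a normoxic one. The limits stated for UPK1A-AS1 and DDIT4-AS1 hold for these 2 genes as well. SLC9A3-AS1 (-1.70 ± 0.32, edgeR adjusted p = 0.0332) ranged from 0.675 to 66.5 CPM in normoxia and 0.150 to 21.3 CPM in hypoxia.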
